A study of Mus musculus with 5 samples.

Results

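The genes described here are 10 transcription factors that set the identity, terminal maturation and tissue residency of natural killer (NK) cells: Tbx21, Eomes, Zeb2, Prdm1, Nfil3, Id2, Ikzf2, Runx3, Gata3 and Zfp683. They were chosen by name, for these roles and with earlier results of these data known, among the 56691 Ensembl gene IDs of the count table. All 10 were found there, each under 1 ID, and all 10 had enough counts to be among the 30580 genes tested. RNA came from mouse spleen NK cells edited with CRISPR, in 3 libraries labelled Fli1 KO (knockout of Fli1, an ETS-family transcription factor) and 2 labelled NTC, the control. The labels used here give no strain, age, guide, culture condition or time after editing, and they do not say whether the libraries of a group came from separate animals. The p-values therefore measure the spread between these libraries, which may be technical.

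NK cells develop from innate lymphoid progenitors in steps, each tied to a few transcription factors. Nfil3 and Id2 act early: Nfil3 is needed for commitment to the lineage, and Id2 holds E proteins in check. Eomes and Tbx21 (T-bet) are T-box factors that together make and keep the mature cell, with Eomes marking circulating NK cells against ILC1, their tissue-resident relatives. Zeb2 acts with T-bet in the last maturation step, Prdm1 (Blimp-1) restrains proliferation and supports granzyme expression, and Runx3, Gata3 and Ikzf2 (Helios) tune receptor expression, development and reactivity. Zfp683 (Hobit), a homologue of Blimp-1, supports the residency of ILC1 in mouse liver.

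The libraries held 4718390 to 5643791 counts. The 2 NTC libraries differed more from each other than any other pair of libraries did, with a chi-square per gene of 14.6 over 20318 genes, against 2.48 to 4.27 between Fli1 KO libraries and 5.51 to 10.8 between libraries of different groups. Every result below rests on that pair as its control. All 8 NK cell markers examined, among them Ncr1, Klrb1c and Klrk1, lay at more than 3 times background, where background is the count per kb of exon on olfactory and vomeronasal receptor genes that NK cells do not use. Their levels summed to 3312 to 3992 counts-per-million (CPM, scaled with TMM factors) in Fli1 KO libraries and 2863 to 3359 CPM in NTC libraries. None of the tested markers of other cell types reached 3 times background. Tested were 8 of 8 T cell, 5 of 6 B cell and 5 of 6 myeloid markers. Of the ILC2 or ILC3 markers 4 of 6 were tested, and of the erythroid or megakaryocyte markers 3 of 6. The rest had too few counts to be tested. The T cell markers summed to 58.2 to 64.4 CPM in Fli1 KO libraries and 57.7 to 61.2 CPM in NTC libraries, and the ILC2 and ILC3 markers, types that use Gata3 heavily, to 26.6 to 31.4 and 33.3 to 35.3 CPM. The B cell markers summed to 35.7 to 39.8 CPM in Fli1 KO libraries and 39.0 to 43.7 CPM in NTC libraries, the myeloid markers to 27.4 to 28.7 and 29.9 to 31.6 CPM, and the erythroid and megakaryocyte markers to 16.95 to 22.65 and 20.98 to 40.5 CPM. No marker was at 0 in all 5 libraries, and Hba-a1 was at 0 in both NTC libraries. Fli1 RNA itself was at 390, 320 and 361 CPM in Fli1 KO libraries, against 322 and 279 CPM in NTC libraries (log2 fold change 0.25, SE 0.14, edgeR adjusted p = 0.641), so the level of its RNA is no check of the labels, since an edit can leave the amount of RNA as it was.

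Because the edited gene encodes an ETS factor, the promoters of 4 factors on which the results turn are shown with the ETS core in capitals (GGAA, or TTCC where it lies on the other strand). Prdm1 and Nfil3 came closest to the threshold of the test, and Tbx21 and Eomes are the T-box pair, whose differences had opposite signs. Each stretch covers 250 bases before and 50 after the start of a RefSeq gene model on GRCm38.p6, written 5′ to 3′ along the gene. They lie at chr10:44458699-44458998 on the minus strand (Prdm1), chr13:52980990-52981289 on the minus strand (Nfil3), chr11:97115282-97115581 on the minus strand (Tbx21) and chr9:118477939-118478238 on the plus strand (Eomes).
Prdm1: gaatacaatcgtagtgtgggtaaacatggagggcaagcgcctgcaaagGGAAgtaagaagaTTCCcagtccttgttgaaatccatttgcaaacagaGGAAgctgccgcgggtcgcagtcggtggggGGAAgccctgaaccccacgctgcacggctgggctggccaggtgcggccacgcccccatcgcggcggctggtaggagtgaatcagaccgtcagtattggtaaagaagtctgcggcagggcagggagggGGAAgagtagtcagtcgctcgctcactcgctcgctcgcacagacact
Nfil3: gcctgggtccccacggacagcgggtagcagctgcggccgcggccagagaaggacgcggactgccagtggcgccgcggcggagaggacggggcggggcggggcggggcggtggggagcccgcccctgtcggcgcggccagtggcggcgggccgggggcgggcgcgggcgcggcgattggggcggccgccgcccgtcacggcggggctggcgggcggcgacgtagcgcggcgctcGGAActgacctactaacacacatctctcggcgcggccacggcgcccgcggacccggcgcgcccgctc
Tbx21: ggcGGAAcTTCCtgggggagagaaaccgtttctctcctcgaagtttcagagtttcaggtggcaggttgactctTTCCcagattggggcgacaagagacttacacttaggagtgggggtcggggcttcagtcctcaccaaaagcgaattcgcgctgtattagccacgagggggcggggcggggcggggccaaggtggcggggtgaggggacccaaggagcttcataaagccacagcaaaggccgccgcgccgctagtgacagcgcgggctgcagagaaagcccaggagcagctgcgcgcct
Eomes: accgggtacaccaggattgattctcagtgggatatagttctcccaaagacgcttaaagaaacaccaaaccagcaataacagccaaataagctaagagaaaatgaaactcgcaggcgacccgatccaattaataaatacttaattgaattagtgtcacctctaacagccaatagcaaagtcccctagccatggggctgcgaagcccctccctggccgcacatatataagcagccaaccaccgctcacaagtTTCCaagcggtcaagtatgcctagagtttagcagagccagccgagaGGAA

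The promoter of Prdm1 held 5 ETS cores, that of Tbx21 held 3, that of Eomes held 2 and that of Nfil3 held 1. Across all 32851 promoters of the table the median was 3 cores, 96.0% held at least 1 and 28.6% held 5 or more. The longer ETS site CAGGAAGT, which contains the core, was found once, in the promoter of Tbx21, and in 3.33% of all promoters. Neither CCGGAAGT (3.89% of all promoters) nor ACAGGAA (8.67%) was found in any of the 12 promoters that the table holds for 8 of the 10 factors. The E-box CACCTG, which ZEB proteins and the E proteins held by Id2 can bind, was found in the promoters of Prdm1 and Tbx21, in the upstream promoter of Runx3 and in 20.2% of all promoters. The RUNX site TGTGGTT was found 2 times in that upstream Runx3 promoter, and 0.204% of all promoters held 2 or more, with the T-box motif GGTGTGA (3.98%) in none of the 12. Both strands were searched, and these matches describe letters, not binding.

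Under the criterion used for all genes, an adjusted p under 0.05 in edgeR's quasi-likelihood test, 0 of the 10 factors were called, where 0.546% of all tested genes were. Most nevertheless lay apart: in 8 of 10 factors the Fli1 KO libraries lay all above or all below the NTC pair, a separation seen in 25.6% of all tested genes. Prdm1, Nfil3, Id2 and Runx3 lay above (4 of 10, against 11.9% of all tested genes), Tbx21, Ikzf2, Gata3 and Zfp683 lay below (4 of 10, against 13.7%), and Eomes and Zeb2 overlapped. At an unadjusted p under 0.05 there were 8 of 10, against 8.94% of all tested genes. Of the 9 factors over 3 times background, 7 had such a p and 7 were separated, against 18.3% and 34.1% of the 7599 genes over that level, of which 1.99% were called. Because the factors were chosen with earlier results of these data known, these contrasts with all genes are descriptions, not independent support. DESeq2 called 2 of the 10 (Prdm1 and Nfil3) and limma-voom 1 (Prdm1), all higher in Fli1 KO. Over all tested genes DESeq2 called 154 higher and 26 lower, and limma-voom 145 and 29. The median log2 fold change of the 10 was 0.23, with 6 positive and 4 negative, against −0.02 for all tested genes and 0.11 for those over 3 times background. It was 0.42 without NTC 1 and 0.07 without NTC 2.

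**Figure D1:**
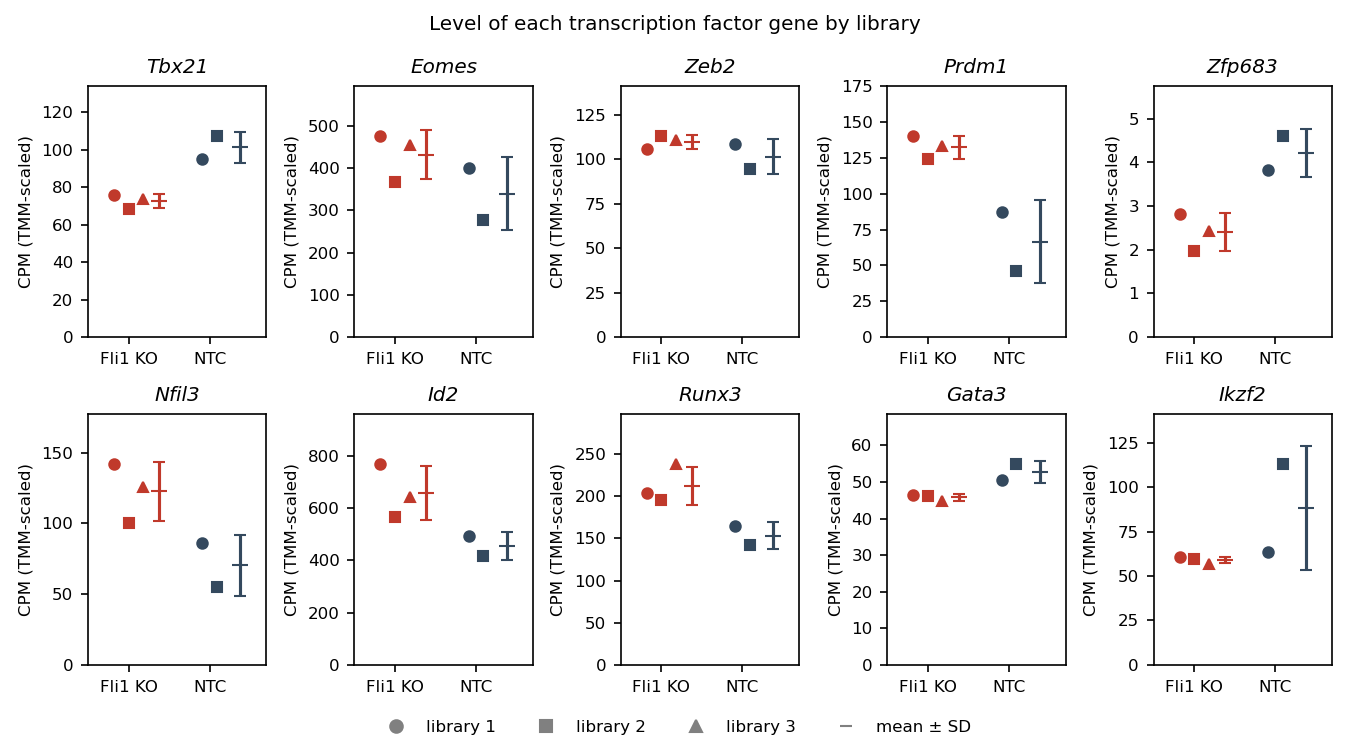
Level of each factor in CPM scaled with TMM factors (vertical axes from 0, each with its own scale), with 1 symbol per library, Fli1 KO in red and NTC in dark blue, and the mean ± SD beside them. The Fli1 KO libraries lie above both NTC libraries for Prdm1, Nfil3, Id2 and Runx3 and below them for Tbx21, Ikzf2, Gata3 and Zfp683.

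Nfil3 and Id2, the early factors, both had their higher values in Fli1 KO. Nfil3 (ENSMUSG00000056749, GRCm38 chromosome 13, 52967209 to 52981073), a basic leucine zipper factor, was at 142, 100.2 and 125.5 CPM in Fli1 KO libraries, against 85.8 and 55.4 CPM in NTC libraries. The lowest Fli1 KO library stood above the higher NTC library. Nfil3 averaged 122.6 ± 21.05 CPM in Fli1 KO (SD, n = 3) and 70.6 ± 21.5 CPM in NTC (SD, n = 2). Its log2 fold change of 0.79 (SE 0.18, 95% interval 0.41 to 1.17) missed the threshold at an edgeR adjusted p of 0.0581. DESeq2 (0.81, adjusted p = 0.0232), upper-quartile scaling (0.77, 0.0389) and edgeR without a filter (0.81, 0.0017) called it higher, while limma-voom (0.81, 0.0592) and edgeR with DESeq2's size factors (0.81, 0.0616) did not. Nfil3 was called at 1.16 without NTC 1 (adjusted p = 1.9e-07) and at 0.94 without Fli1 KO 2 (0.0140). It was not called at 0.68 without Fli1 KO 1 (0.445), at 0.79 without Fli1 KO 3 (0.307) or at 0.52 without NTC 2 (0.337). Id2 (ENSMUSG00000020644, chromosome 12, 25093799 to 25097140), which blocks E proteins by pairing with them, was at 769, 565 and 642 CPM in Fli1 KO libraries, against 493 and 418 CPM in NTC libraries. The groups did not overlap, with Fli1 KO 1 well above the other two Fli1 KO libraries, and the log2 fold change of 0.53 (SE 0.15, 95% interval 0.21 to 0.85) had an adjusted p of 0.184. The value of Id2 was 0.68 without NTC 1 and 0.43 without NTC 2.

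The log2 fold changes of the T-box pair had opposite signs, and neither factor was called. Tbx21 (ENSMUSG00000001444, chromosome 11, 97098071 to 97115331), which drives terminal maturation and interferon-gamma, was at 75.9, 68.5 and 73.6 CPM in Fli1 KO libraries, against 95.2 and 107 CPM in NTC libraries. The groups lay apart, and the 2 NTC libraries differed by 42.0% of the gap between the group means. Tbx21 averaged 72.6 ± 3.77 CPM in Fli1 KO (SD, n = 3) and 101 ± 8.47 CPM in NTC (SD, n = 2), 1.39-fold lower in Fli1 KO (log2 fold change −0.48, SE 0.13, 95% interval −0.75 to −0.20, edgeR adjusted p = 0.145). The call depended on the scaling and the genes fitted. Tbx21 was called lower with library size alone as the scaling (−0.60, edgeR adjusted p = 0.0224). It was also called among genes over 3 times background (−0.60, 0.0213) and of at least 5 CPM in 2 libraries (−0.50, 0.0454). DESeq2 (−0.46, adjusted p = 0.274) and limma-voom (−0.48, 0.165) did not call it. Neither did edgeR with upper-quartile factors (−0.50, adjusted p = 0.0575) or DESeq2's size factors (−0.46, 0.212). With 1 Fli1 KO library left out the edgeR adjusted p was 0.246 to 0.632. The value was −0.54 without NTC 1 and −0.38 without NTC 2. With library size alone, all tested genes had a median of −0.14. In the fit on all tested genes, those over 3 times background had a median of 0.11.

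Eomes (ENSMUSG00000032446, chromosome 9, 118478212 to 118486132), the more abundant of the pair per kb of exon, was at 476, 366 and 454 CPM in Fli1 KO libraries, against 401 and 278 CPM in NTC libraries. NTC 1 lay inside the Fli1 KO range and NTC 2 below it. The log2 fold change was 0.35 (SE 0.16, 95% interval 0.01 to 0.68, edgeR adjusted p = 0.538), and it was 0.65 without NTC 1 (adjusted p = 0.0138) and 0.12 without NTC 2 (0.928). The ratio of the counts of 2 genes within a library does not depend on the scaling between libraries. On the log2 scale Tbx21 to Eomes was −2.65, −2.42 and −2.62 in Fli1 KO libraries, against −2.07 and −1.38 in NTC libraries. Every Fli1 KO library had less Tbx21 per Eomes than either NTC library, with a difference of −0.84 between the means. The exact permutation test gave p = 0.1 (two-sided, 10 arrangements), the smallest that 3 against 2 libraries allow, and 0.5 after adjustment over the 5 ratios tested. The difference was −0.49 without NTC 2 and −1.19 without NTC 1.

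Zeb2 (ENSMUSG00000026872, chromosome 2, 44983632 to 45117395), a zinc-finger repressor that acts after T-bet, stood at 105.5, 113 and 111 CPM in Fli1 KO libraries, against 108 and 94.6 CPM in NTC libraries. The groups overlapped, and the 95% interval of the log2 fold change of 0.11 ran from −0.16 to 0.39 (edgeR adjusted p = 0.869). In the fit on genes over 3 times background and with library size alone its value was −0.00 and −0.02. Its paralogue Zeb1 was at 78.4 CPM in Fli1 KO and 67.5 CPM in NTC (adjusted p = 0.705). The log2 ratio of Zeb2 to Zeb1 was 0.49 ± 0.17 (SD, n = 3) in Fli1 KO and 0.59 ± 0.02 (SD, n = 2) in NTC (exact permutation p = 0.4).

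Prdm1 had the log2 fold change of largest size among the 10 factors, and its homologue Zfp683 lay near background. Prdm1 (ENSMUSG00000038151, chromosome 10, 44437177 to 44528501) was at 140, 124 and 133 CPM in Fli1 KO libraries, against 87.0 and 46.2 CPM in NTC libraries. The Fli1 KO libraries lay close together, while NTC 1 and NTC 2 lay far apart. Prdm1 averaged 132 ± 8.05 CPM in Fli1 KO (SD, n = 3) and 66.6 ± 28.9 CPM in NTC (SD, n = 2), 1.98-fold higher in Fli1 KO (log2 fold change 0.98, SE 0.21, 95% interval 0.54 to 1.43, edgeR adjusted p = 0.0581). Without NTC 1 the value was 1.54 (adjusted p = 1.7e-12) and without NTC 2 it was 0.61 (0.142). Without Fli1 KO 1, 2 or 3 it was 0.95 (0.351), 1.05 (0.102) or near 1 (0.170), and not called. DESeq2 (adjusted p = 0.00266), limma-voom (0.0180), edgeR with DESeq2's size factors (0.0480) and edgeR without a filter (5.3e-04) called it higher. With upper-quartile factors (0.97, edgeR adjusted p = 0.0960) or library size alone (0.85, 0.183) Prdm1 was not called. The edgeR fits on genes of at least 5 CPM in 2 libraries (0.96, 0.125) and over 3 times background (0.88, 0.0735) did not call it either.

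Zfp683 (ENSMUSG00000049410, chromosome 4, 134053838 to 134058996) had 14, 11 and 12 counts in Fli1 KO libraries, against 22 in each NTC library. With the density on receptor genes scaled to its exon length, 11.1, 14.0 and 10.8 counts of background were expected in the Fli1 KO libraries and 11.8 and 12.6 in the NTC libraries. The exact Poisson 95% intervals, which cover counting error only, ran from 5.49 to 23.5 counts over the Fli1 KO libraries and from 13.8 to 33.3 for each NTC library. The Fli1 KO counts could not be told from background at this depth, and the log2 fold change of −0.80 (SE 0.34, edgeR adjusted p = 0.471) is uncertain for that reason.

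Runx3, Gata3 and Ikzf2 complete the set. Runx3 (ENSMUSG00000070691, chromosome 4, 135120652 to 135177990), a Runt-domain factor that binds DNA with Cbfb, was at 204, 195 and 238 CPM in Fli1 KO libraries, against 165 and 142 CPM in NTC libraries. The groups did not overlap (log2 fold change 0.47, SE 0.14, 95% interval 0.18 to 0.76, edgeR adjusted p = 0.211). For Runx3 the value was 0.60 without NTC 1 and 0.37 without NTC 2. Its paralogue Runx1 had nearly the same difference, with 165, 164 and 167.5 CPM in Fli1 KO libraries, against 125 and 113 CPM in NTC libraries (0.47, SE 0.13, adjusted p = 0.150). The log2 ratio of Runx3 to Runx1 was accordingly 0.36 ± 0.14 (SD, n = 3) in Fli1 KO and 0.36 ± 0.05 (SD, n = 2) in NTC (exact permutation p = 1).

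Gata3 (ENSMUSG00000015619, chromosome 2, 9857078 to 9890034), a zinc-finger factor of T cells, ILC2 and early NK cells, was at 46.4, 46.2 and 44.7 CPM in Fli1 KO libraries, against 50.6 and 54.9 CPM in NTC libraries. These ranges were separate but narrow, with a log2 fold change of −0.20 (SE 0.14, 95% interval −0.49 to 0.08, edgeR adjusted p = 0.712). Ikzf2 (ENSMUSG00000025997, chromosome 1, 69531214 to 69687245), an Ikaros-family factor, was at 60.5, 59.4 and 57.0 CPM in Fli1 KO libraries, against 63.6 and 113 CPM in NTC libraries. NTC 1 stood barely above the Fli1 KO libraries and NTC 2 far above them. The log2 fold change was −0.58 (SE 0.18, adjusted p = 0.272), −0.92 without NTC 1 (adjusted p = 7.0e-06) and −0.10 without NTC 2 (0.938), so it was near 0 against NTC 1 alone. Its relative Ikzf3 (Aiolos) was at 257 CPM in Fli1 KO and 266 CPM in NTC (adjusted p = 0.960), and the difference in the log2 ratio of Ikzf2 to Ikzf3, −0.49 (exact permutation p = 0.5), became 0.11 without NTC 2. The log2 ratio of Id2 to its relative Id3, which lay at 1.06 times background, was 7.66 ± 0.14 (SD, n = 3) in Fli1 KO and 7.35 ± 0.13 (SD, n = 2) in NTC (exact permutation p = 0.2). In bulk RNA, fewer cells with a factor and less of its RNA per cell cannot be told apart.

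**Figure D2:**
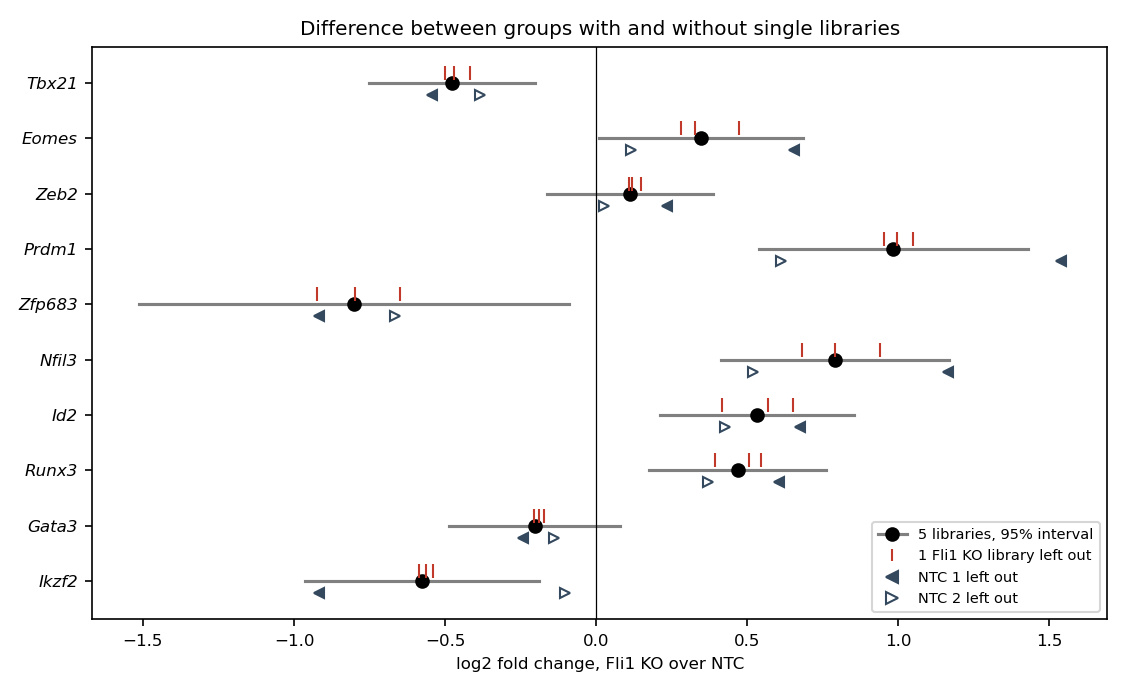
Log2 fold change of Fli1 KO over NTC for each factor with all 5 libraries (black, 95% interval in grey), and with single libraries left out (ticks for Fli1 KO libraries, triangles for NTC libraries). For Prdm1 the value is 1.54 with NTC 1 left out and 0.61 with NTC 2 left out, and for Ikzf2 −0.92 and −0.10.

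In 10 of 10 factors NTC 2 lay farther than NTC 1 from the Fli1 KO mean, as it did in 56.7% of all tested genes and 65.8% of those over 3 times background. On the log2 scale NTC 2 differed from NTC 1 by −0.91 for Prdm1, 0.83 for Ikzf2, −0.63 for Nfil3 and −0.53 for Eomes, and the differences between groups for these genes were 0.98, −0.58, 0.79 and 0.35. In 6 of 10 factors the range of the 2 NTC libraries was wider than that of the 3 Fli1 KO libraries, against 34.0% of all tested genes. Without NTC 1, edgeR called 5 factors higher (Prdm1, Nfil3, Id2, Runx3 and Eomes) and 2 lower (Ikzf2 and Tbx21), and without NTC 2 it called 0, with the smallest adjusted p, 0.142, for Prdm1. Over all genes the fit without NTC 1 called 703 higher (2.14%) and 174 lower (0.529%), and that without NTC 2 called 111 (0.336%) and 26 (0.0787%). Each of these fits leaves 1 NTC library, which is assumed to vary as much as the Fli1 KO libraries do.

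By level per kb of exon the factors spanned a wide range. In Fli1 KO it ran from Id2 (270.2 CPM per kb) through Eomes (104), Nfil3 (60.5), Runx3 (42.5), Tbx21 (29.2), Prdm1 (23.7), Gata3 (11.5), Zeb2 (5.50) and Ikzf2 (5.08) to Zfp683 (1.63), and no neighbours in this order overlapped across the 3 libraries. In NTC it began with Id2 (187) and Eomes (81.7), after which came Tbx21 (40.7), Nfil3 (34.8), Runx3 (30.7), Gata3 (13.3), Prdm1 (11.9), Ikzf2 (7.61), Zeb2 (5.09) and Zfp683 (2.86). Tbx21 overlapped with Nfil3, Nfil3 with Runx3, Gata3 with Prdm1 and Prdm1 with Ikzf2 across the NTC libraries. The NTC order was not that of each library: in NTC 1 Nfil3 (42.4 CPM per kb) lay above Tbx21 (38.3) and Prdm1 (15.6) above Gata3 (12.7), as in Fli1 KO. Exon length here joins all annotated isoforms, which makes the per-kb levels of Zeb2 (19942 bases) and Ikzf2 (11613 bases) low.

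**Figure D3:**
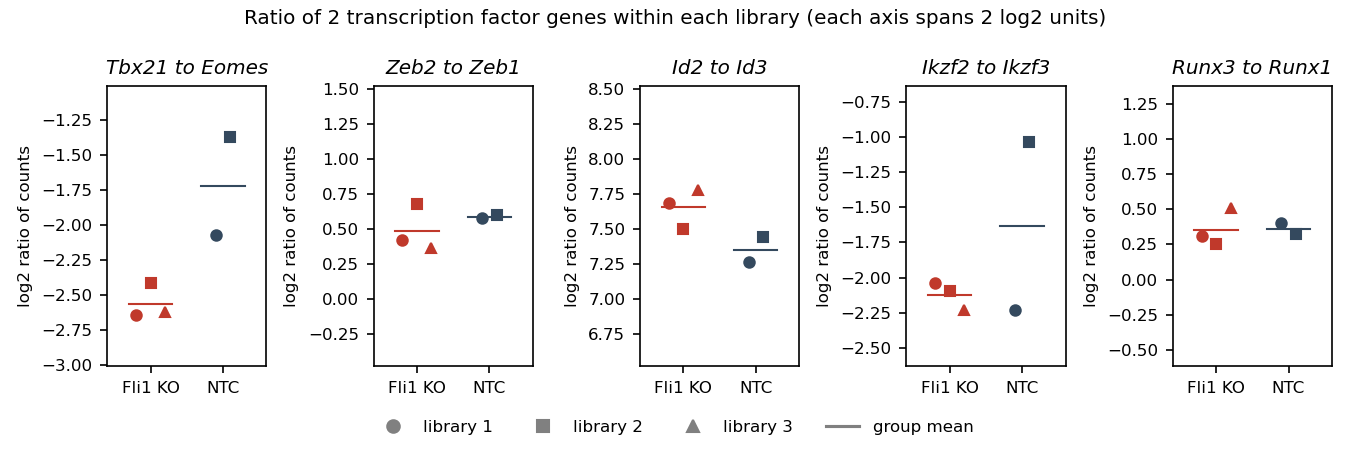
Log2 ratio of the counts of 2 related genes within each library, Fli1 KO left of NTC, with the group mean as a line; every axis spans 2 log2 units. The ratio of Tbx21 to Eomes is lower in each Fli1 KO library than in either NTC library, and that of Runx3 to Runx1 has equal means of 0.36.

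Relatives and partners of these factors (ID proteins, E proteins, ZEB, Ikaros, RUNX, GATA, PRDM and PAR leucine zipper genes) gave 0 calls among 22 tested of 23, with 2 at an unadjusted p under 0.05 and 0 calls by DESeq2 and limma-voom. Without NTC 1 there was 1 call higher and 1 lower. Runx1 had the smallest p of them. Their median log2 fold change was 0.01. Among 25 other regulators of the NK lineage, 2 were called higher, Klf2 (log2 fold change 2.16), a factor of lymphocyte quiescence and trafficking, and Irf8 (1.02), a factor of NK maturation, and 0 lower. Irf8 lost its call without Fli1 KO 1 (0.90, edgeR adjusted p = 0.102) or Fli1 KO 3 (1.02, 0.0862). Tcf7 (TCF-1), a factor of early NK cells and memory, had the largest negative value of the list, −1.07 (SE 0.26, adjusted p = 0.211), with 97.4, 155 and 122 CPM in Fli1 KO libraries, against 192 and 335.5 CPM in NTC libraries. It was called lower by DESeq2 (−1.06, adjusted p = 0.00173) and limma-voom (−1.04, 0.0272), without Fli1 KO 2 (−1.24, 0.0372) and without NTC 1 (−1.40, 1.4e-14), and stood at −0.61 (0.125) without NTC 2. The list held 1 call lower by DESeq2, by limma-voom and without Fli1 KO 2. With library size alone it also held 1, which was not Tcf7 (−1.18, edgeR adjusted p = 0.267). The median of the list was 0.15. For comparison 0.458% of all tested genes were called higher and 0.0883% lower. These lists and those below were also chosen with earlier results of these data known. Their calls, set beside the shares of all genes, are therefore descriptions, not independent support.

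Genes that mark late maturation, several of which T-bet, Zeb2 or Blimp-1 are known to act on, held 4 calls higher and 0 lower among 20, with a median log2 fold change of 0.51, which was 0.85 without NTC 1 and 0.25 without NTC 2. S100a4, a calcium-binding protein of mature NK cells, rose to 36.1, 32.3 and 32.6 CPM in Fli1 KO libraries, against 20.5 and 16.5 CPM in NTC libraries (0.86, SE 0.17, edgeR adjusted p = 0.0121). Ifng, the interferon-gamma gene that T-bet activates, rose to 58.5, 43.0 and 46.8 CPM in Fli1 KO libraries, against 14.2 and 11.5 CPM in NTC libraries (1.93, SE 0.18, adjusted p = 1.7e-06). The serpin gene Serpinb9b (1.58) and the integrin gene Itgam (0.74) were the other two. S100a4 was not called without Fli1 KO 1 (0.81, adjusted p = 0.144), Fli1 KO 3 (0.90, 0.105) or NTC 2 (0.72, 0.132), with values not far from 0.86. Itgam lost its call without Fli1 KO 1 (0.71, 0.372) or Fli1 KO 3 (0.75, 0.284). Its value was 1.14 without NTC 1 and 0.46 without NTC 2 (0.468). It was also not called with library size alone (0.61, 0.10) or limma-voom (0.77, 0.0508). S1pr5, an egress receptor that needs T-bet and Zeb2, stood at 14.1 CPM in Fli1 KO and 13.6 CPM in NTC (0.04, adjusted p = 0.981). The number of late-stage genes called higher was 11, with 1 lower, without NTC 1, where calls over all genes were also more (703 higher, against 140 with all libraries). It was 2 without NTC 2, Fli1 KO 1 or Fli1 KO 3, where 111, 46 and 57 of all genes were called higher.

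Genes of early stages held 0 calls higher and 1 lower among 20, with a median of −0.36, which was −0.44 without NTC 1 and −0.05 without NTC 2. In 16 of the 20 NTC 2 lay farther than NTC 1 from the Fli1 KO mean. The same held in 56.7% of all tested genes and 65.8% of those over 3 times background. The interleukin-7 receptor gene Il7r was at 20.2, 25.3 and 21.4 CPM in Fli1 KO libraries, against 20.1 and 117 CPM in NTC libraries. Its NTC 1 value thus lay at the lower edge of the Fli1 KO values and NTC 2 far above them. Ltb, Kit and Cd7 had NTC 1 inside the Fli1 KO range and NTC 2 above it. The megakaryocyte markers Pf4, Itga2b and Gp9 were also highest in NTC 2, and their part in these values was not tested. The chemokine gene Xcl1 was the one called (−0.89). Its libraries did not follow that pattern, with 119, 149 and 141 CPM in Fli1 KO libraries, against 283 and 221 CPM in NTC libraries. Its call was lost without Fli1 KO 1 (−0.79, edgeR adjusted p = 0.102) or Fli1 KO 3 (−0.90, 0.0802). Without NTC 1 the list held 9 calls lower and 2 higher, in the fit that called 174 genes lower and 703 higher in all. Cd27, the receptor that divides early from late NK cells, was at 43.9 CPM in Fli1 KO and 43.3 CPM in NTC (0.02, adjusted p = 0.985).

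Residency and ILC1 genes, the programme that Hobit and T-bet serve in tissue, went both ways, with 2 called higher and 3 lower among 20 and a median of −0.15 (−0.22 without NTC 1 and −0.01 without NTC 2). Tnfsf10, the death ligand TRAIL of ILC1, fell to 42.0, 39.4 and 42.7 CPM in Fli1 KO libraries, against 67.6 and 72.1 CPM in NTC libraries (−0.76, SE 0.13, edgeR adjusted p = 0.00551). Inpp4b, a phosphoinositide phosphatase, fell to 84.3, 80.8 and 80.8 CPM in Fli1 KO libraries, against 120 and 130 CPM in NTC libraries (−0.61, SE 0.13, adjusted p = 0.0261). In both genes the libraries of each group lay close together. Cd160, a receptor for MHC class I and HVEM, fell as well (−1.22). Rgs1, a brake on chemokine receptor signalling, rose to 134.8, 94.7 and 135 CPM in Fli1 KO libraries, against 61.2 and 70.8 CPM in NTC libraries (0.88, SE 0.16, adjusted p = 0.00695), and Cd69, which retains cells in tissue, rose too (1.99). The integrin gene Itga1 (CD49a), a marker of ILC1, was at 155 CPM in Fli1 KO and 159 CPM in NTC (adjusted p = 0.977). Without Fli1 KO 1 the values of Tnfsf10 (−0.76, adjusted p = 0.0905), Inpp4b (−0.62, 0.214) and Rgs1 (0.81, 0.170) were close to those with all libraries but not called, and likewise without Fli1 KO 3 (0.130, 0.418 and 0.170). For Inpp4b the same held without Fli1 KO 2 (0.0710) or NTC 2 (0.196). Calls higher in the list numbered 4 with upper-quartile factors (0.582% of all genes fitted), 5 without a filter (0.452%) and 5 without Fli1 KO 2 (0.748%). Calls lower numbered 4 with DESeq2 (0.085%). Without Fli1 KO 1 or Fli1 KO 3 the list held 1 call higher (0.154% and 0.191%) and 1 lower (0.01% and 0.0234%). With all libraries, 0.458% of all tested genes were called higher and 0.0883% lower. Because this list was chosen with earlier results known, that contrast is a description only.

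**Figure D4:**
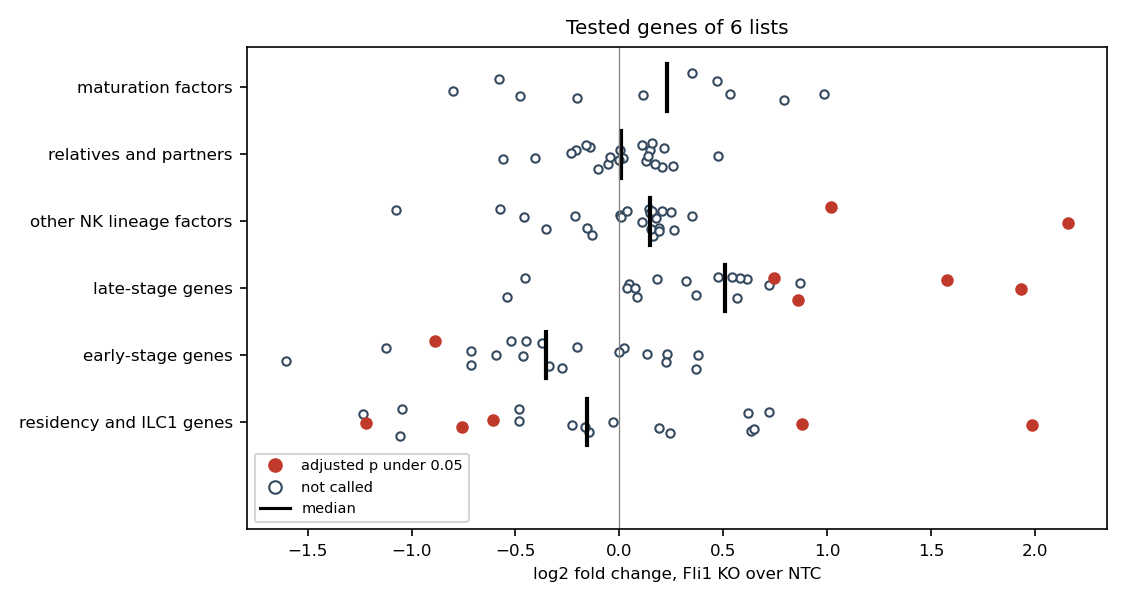
Log2 fold change of Fli1 KO over NTC for every tested gene of 6 lists, with called genes filled in red, others open, and the list median as a black bar. The 10 maturation factors hold 0 called genes and a median of 0.23, late-stage genes a median of 0.51 and early-stage genes −0.36.

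The genes whose pattern over the 5 libraries was most like that of Prdm1, the factor with the smallest p, were sought among 7497 protein-coding genes of at least 20 CPM. The measure was the root mean square difference of log2 levels, each centred on its own mean. The nearest were Pfkp, a phosphofructokinase of glycolysis (0.0527), Ndrg1, a stress and hypoxia response gene (0.0996), and the linker histone gene Hist1h1e (0.101). Pfkp stood at 617, 525 and 599 CPM in Fli1 KO libraries, against 377 and 187 CPM in NTC libraries, with the same drop in NTC 2 as Prdm1. With 5 libraries many genes share such a pattern, and likeness over so few points is a description.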

How the data were processed

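RNA of spleen NK cells was measured in 3 Fli1 KO and 2 NTC libraries. Per the labels' protocols, libraries were made from 10 ng of RNA with an Illumina enrichment kit. The submitters' processing notes name FastQC 0.12.0, Trimmomatic 0.39, STAR 2.7.11 and mm10. No counter, strand setting or annotation release is given in the sources used here. Raw counts per Ensembl gene ID were deposited, with 0 columns of no sample.

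Symbols came from a gene name table (52073 of 56691 IDs) and positions from GENCODE M21 on GRCm38. Genes passing edgeR's filterByExpr (minimum 10 counts) were scaled with TMM factors and tested with the robust quasi-likelihood test (edgeR 4.0.16, R 4.3.3), with Benjamini-Hochberg adjustment over all 30580 genes. A gene is called at an adjusted p under 0.05, and only such genes are said to have risen or fallen. Background rests on 1411 autosomal receptor genes. Ratios used counts plus 0.5, with the exact permutation test.

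The members and lists were chosen with earlier results of these data known. The text names the 10 factors, Fli1, the second gene of each ratio, up to 4 called genes per list (or the gene with the smallest p) and the 3 genes nearest in pattern. Inpp4b, Tcf7, S1pr5, Cd27, Itga1, Il7r, Ltb, Kit, Cd7 and the megakaryocyte markers were added after their values were seen. Alternatives were other scalings and filters, DESeq2 1.42.0, limma-voom (limma 3.58.1), each library left out and the replicate number as a block. The settings were applied to the 5 lists that hold no member after seeing the data.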

Additional observations from a re-analysis of the deposited data

How the results depend on the processing

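Each factor kept the sign of its log2 fold change in every setting run, except Zeb2, which was at −0.00 among genes over 3 times background and −0.02 with library size alone. The factors called higher numbered 1 with DESeq2's size factors in edgeR (0.461% of all genes fitted), 1 with upper-quartile factors (0.582%) and 2 without a filter (0.452%). They numbered 2 with DESeq2 (0.504%), 1 with limma-voom (0.474%) and 0 or 1 with 1 Fli1 KO library left out (0.154% to 0.748%). Those called lower numbered 0 with 1 Fli1 KO library left out (0.01% to 0.0752%) and 1 with library size alone (0.232%). There was also 1 with at least 5 CPM in 2 libraries (0.189%) and 1 among genes over 3 times background (0.75%). Zfp683 was not fitted under the 2 last-named filters. Over all genes, calls higher numbered 92 with library size alone, 239 without a filter and 46 (without Fli1 KO 1) to 703 (without NTC 1) with 1 library left out, against 140. Calls lower numbered 71 with library size alone, 56 without a filter, 57 among genes over 3 times background and 3 (without Fli1 KO 1) to 174 (without NTC 1) with 1 library left out, against 27. Of the 5 ratios, the difference for Ikzf2 to Ikzf3 ran from −1.09 to 0.11 with 1 library left out, and that for Runx3 to Runx1 from −0.084 to 0.045. The cause was not tested.

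With the replicate number as a block, edgeR called 4 factors higher and 2 lower, and 728 and 193 genes in all. The deviations of same-numbered libraries correlated at 0.279 and 0.415 over 7599 genes, but only 2 pairs exist and no label ties the numbers to an animal or day, so the libraries share only a number. With 2 NTC libraries the deviations of NTC 1 and NTC 2 mirror each other, so the 2 correlations are not separate evidence of pairing. Fli1 KO 3, which shares no number with NTC 1, correlated with it at 0.19. Fli1 KO 3 has no partner and adds nothing to the fit with the block. Depth limits the low genes: Zfp683 rests on 11 to 22 counts per library.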

Other observations

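Transcripts annotated across the loci of the factors were examined because the strand setting of the counting is not given, so reads of a factor and of an antisense neighbour that shares exon bases cannot be told apart. Eomes shares 118 exon bases with the antisense Gm33460 (3.54 CPM in Fli1 KO and 5.89 CPM in NTC, log2 fold change −0.74, edgeR adjusted p = 0.479). Zeb2 shares 653 with Zeb2os, a natural antisense transcript of its locus, which lay at 4.13 and 4.41 CPM (−0.08, adjusted p = 0.968). Ikzf2 shares 144 with Gm29114 (3.99 CPM in Fli1 KO and 4.55 CPM in NTC, adjusted p = 0.914), and Gata3 shares 155 with Gm13256 (0.812 and 1.06 CPM, not tested for low counts). None of the 4 was called, and each was far below its sense partner in CPM.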
